A study of Mus musculus with 8 samples.

Results

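Myl7, Myl4, Sln and Bmp10 are 4 genes that the adult mouse heart is known to express mainly in its atria. Their messenger RNA was followed here in 8 libraries of mouse myocardium. The 4 genes were picked by name, out of 33249 genes in the deposited gene table, after their level in 1 library of infarcted control myocardium, the library labelled fl/fl-MI 2, had been seen. Values that rest on that library are therefore given as a description, with no test. All 4 genes were found in the gene table, and 10 of the 94947 rows of the transcript table belong to them. All 4 passed the filter on low values (a mean FPKM, fragments per kilobase of transcript, scaled to the sequencing depth, of at least 0.5 over the libraries), also with fl/fl-MI 2 left out, when their mean FPKM was between 1.16 for Sln and 10.8 for Myl7.

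The study asked what the stretch-activated channel Piezo1 does in cardiomyocytes after myocardial infarction (MI). Mice homozygous for a floxed Piezo1 allele (fl/fl), all of them carrying that allele, were crossed with Myh6-MerCreMer, a transgene in which the Myh6 promoter drives a tamoxifen-inducible Cre in cardiomyocytes. Transgenic mice (CKO) were labelled Piezo1 knockout and received tamoxifen at 4 weeks of age, and littermates without the transgene, labelled wild type, were the controls. Whether the controls also received tamoxifen was not given in the sources used here. At 8 weeks the left anterior descending artery was tied off for good, or the same operation was done without the ligation (sham), and MI myocardium was taken at day 42. This gave 4 groups of 2 libraries each: fl/fl-Sham and fl/fl-MI for the controls, CKO-Sham and CKO-MI for the knockout. Nothing in the labels says whether the 2 libraries of a group came from separate animals or from pools, so p-values measure only the spread between these libraries, which may be technical. The knockout reaches cardiomyocytes only, and other cells of the tissue keep Piezo1.

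Some facts of the whole series bear on these genes. Total gene counts were between 73821747 and 88117573 per library. The mitochondrial share of all counts was lower after MI (19.9% to 24.2%) than after the sham operation (43.1% to 46.4%). Piezo1 itself was at 53.5 to 88.3 CPM (counts brought to a common library size and scaled by TMM, the trimmed mean of M values) in all 8 libraries, and its 2 CKO-Sham libraries, at 76.7 and 88.3, were not below the fl/fl-Sham libraries, at 72.2 and 82.0. Esr1, the mouse estrogen receptor gene of which MerCreMer carries a part, was at 707 and 402 CPM in CKO-MI and at 331 in the library labelled fl/fl-MI 2, against 5.52 to 8.36 in the other 5 libraries, which include both libraries labelled CKO-Sham. On Esr1, fl/fl-MI 2 and both CKO-Sham libraries thus go against their genotype labels. The labels were used as given. In the fits over all 8 libraries fl/fl-MI 2 enters the error of every contrast, so values without it are given beside them. Of the cardiomyocyte genes, Myh6 encodes the main myosin heavy chain of the adult mouse heart. Its level was 18609 CPM in fl/fl-MI 2 and between 4976 (fl/fl-MI 1) and 14985 CPM in the other libraries. Of 7 cardiomyocyte genes, 2 were highest in fl/fl-MI 2, as were 19.9% of the 14028 genes that passed the filter.

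Heart muscle in the atria and in the ventricles is built from partly different proteins. The regulatory myosin light chain is encoded by Myl7 in the atria and by Myl2 in the ventricles, and the essential light chain by Myl4 and by Myl3. Sarcolipin (Sln) is a small membrane peptide that inhibits the calcium pump of the sarcoplasmic reticulum, SERCA2a (Atp2a2), and is found mainly in atrial myocytes, while phospholamban (Pln), its better known relative, dominates in the ventricle. Bmp10 encodes a secreted ligand of the bone morphogenetic protein (BMP) family that signals through the receptors Acvrl1 and Bmpr2 with the co-receptor endoglin (Eng), and in the adult heart it is known chiefly from the right atrium.

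The 4 genes lie on 3 chromosomes of the GRCm38 build. Myl7 (ENSMUSG00000020469) is at chr11:5896637-5898782 on the minus strand with 7 exons, Myl4 (ENSMUSG00000061086) at chr11:104550663-104595753 on the plus strand, Sln (ENSMUSG00000042045) at chr9:53850164-53854560 on the plus strand with 2 exons, and Bmp10 (ENSMUSG00000030046) at chr6:87428994-87437677 on the plus strand with 2 exons. No other gene of the GENCODE M21 annotation overlaps Myl7, Sln or Bmp10. Myl4 has 4 small genes on the opposite strand inside its borders (Gm11665, Gm22000, Gm11661 and Gm11663), none above 0.326 CPM in any library. All 4 end before the start of the transcript that carried most Myl4 counts, as described after the promoters, and lie only within the span of a long form with few counts.

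Because the atrial and ventricular light chains are relatives, reads could in principle be shared between them, so the most alike stretch of each pair is shown. The 60 bases below are the ungapped stretch with the most identical bases in an alignment of the coding sequences (GENCODE M21, GRCm38), with the bases that differ in capitals.
Myl7, coding bases 82 to 141: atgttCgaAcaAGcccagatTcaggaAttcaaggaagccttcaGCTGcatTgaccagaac
Myl2, coding bases 58 to 117: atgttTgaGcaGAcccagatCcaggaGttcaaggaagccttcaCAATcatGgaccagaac
Myl4, coding bases 385 to 444: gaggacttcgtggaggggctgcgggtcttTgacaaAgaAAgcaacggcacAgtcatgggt
Myl3, coding bases 418 to 477: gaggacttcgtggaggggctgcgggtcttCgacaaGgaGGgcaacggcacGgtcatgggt
Even in these best stretches 11 of 60 bases differ between Myl7 and Myl2 and 5 of 60 between Myl4 and Myl3. Over the whole alignment 65.7% of 499 aligned bases were identical for the first pair and 78.1% of 579 for the second. The longest run shared by the full transcripts was 16 bases for Myl7 and Myl2 and 29 bases for Myl4 and Myl3. It was 9 bases for Sln and Pln. Sarcolipin is short enough to print its whole coding sequence of 96 bases, stop codon included, which lies in the second exon at chr9:53853473-53853568 on the plus strand.
Sln: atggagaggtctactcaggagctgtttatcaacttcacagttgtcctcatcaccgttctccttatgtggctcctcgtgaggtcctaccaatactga

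Promoters were looked up because the 4 genes were high together in 1 library. RefSeq's promoter table (GRCm38.p6) held entries for Myl7, Myl4 and Bmp10. The 250 bases before the start of Myl7 (chr11:5898783-5899032, minus strand) and of Bmp10 (chr6:87428744-87428993, plus strand) are printed 5′ to 3′, with capitals for the motifs that were found among 4 that were searched on both strands: GATAA, the core recognised by GATA factors, the CArG box of serum response factor, the MEF2 box, and the T-box letters GGTGTGA.
Myl7: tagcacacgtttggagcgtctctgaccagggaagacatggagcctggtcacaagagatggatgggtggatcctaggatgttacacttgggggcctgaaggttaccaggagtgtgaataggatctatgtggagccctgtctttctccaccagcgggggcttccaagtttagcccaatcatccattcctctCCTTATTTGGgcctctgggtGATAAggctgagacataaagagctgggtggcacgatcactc
Bmp10: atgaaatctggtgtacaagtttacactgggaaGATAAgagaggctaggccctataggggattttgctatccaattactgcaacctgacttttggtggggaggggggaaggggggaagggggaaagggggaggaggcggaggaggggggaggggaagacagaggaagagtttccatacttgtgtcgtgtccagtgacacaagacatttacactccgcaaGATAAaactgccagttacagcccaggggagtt
Myl7 held 1 CArG box that begins 61 bases before the start and 1 GATAA that begins 41 bases before it. Bmp10 held 2 GATAA matches, which begin 218 and 32 bases before the start, and no CArG box. Of all 32851 promoter windows of the same length, 22.6% held GATAA, 1.47% a CArG box, 2.92% a MEF2 box and 3.33% GGTGTGA. The ventricular genes Myl2 and Myl3 each held 1 GATAA as well, and Myl3 a CArG box. A match is a description of the letters, not a bound site. The Myl4 entry is not printed, because its start is not the start of the transcript that carried the reads, as described next.

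Myl7, Sln and Bmp10 have 1 annotated transcript each in the deposited transcript table, and Myl4 has 7. In every library a single Myl4 transcript, ENSMUST00000106956 with 7 exons at chr11:104577281-104587215, carried between 85.9% and 95.8% of the transcript counts of the gene. It starts 26618 bases downstream of the annotated start of the gene. The long form that uses the annotated start, ENSMUST00000018800, had at most 12 counts in any library, and 4 of 232861 in fl/fl-MI 2. The 2 retained-intron forms, which keep intron sequence, together held 7.13% to 12.5% of the Myl4 transcript counts in the other 7 libraries and 3.6% in fl/fl-MI 2. The same main form thus carried Myl4 at low and at high level. Transcript counts are estimates that share reads between forms, and no error was given with them.

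Myl7, the atrial regulatory light chain, was at 6.38 and 5.33 CPM in fl/fl-Sham, 3.56 and 21.6 in CKO-Sham, 4.06 and 1157 in fl/fl-MI, and 5.00 and 3.90 in CKO-MI. A single MI library was far above all others, CKO-Sham 2 was second, and the remaining 6 libraries stayed within a 1.79-fold range. The level in fl/fl-MI 2 was 53.5 times that of CKO-Sham 2 and 231 times the median of the other 7 libraries.

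Myl4, the atrial essential light chain, was at 13.7 and 13.4 CPM in fl/fl-Sham, 10.8 and 48.0 in CKO-Sham, 12.5 and 2810 in fl/fl-MI, and 12.1 and 10.2 in CKO-MI. The order was that of Myl7, and the 6 remaining libraries lay within a 1.34-fold range. The ratio of fl/fl-MI 2 to CKO-Sham 2 was 58.6, and that to the median of the other 7 libraries was 225.

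Sln was the lowest of the 4 genes in CPM. It was at 1.04 and 1.25 CPM in fl/fl-Sham, 1.24 and 4.62 in CKO-Sham, 0.897 and 310 in fl/fl-MI, and 1.24 and 1.40 in CKO-MI. These low values rest on 61 to 136 counts per library outside fl/fl-MI 2 and CKO-Sham 2, and at 4 counts per read pair the 95% counting intervals of these 6 libraries all overlap. The level in fl/fl-MI 2 was 67.0 times that of CKO-Sham 2.

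Bmp10, the secreted member, was at 18.8 and 16.9 CPM in fl/fl-Sham, 13.0 and 15.8 in CKO-Sham, 10.3 and 3834 in fl/fl-MI, and 12.6 and 11.2 in CKO-MI. It was the only one of the 4 that was not raised in CKO-Sham 2, which lay between the fl/fl-Sham libraries and CKO-Sham 1. The level in fl/fl-MI 2 was 204 times that of the next highest library, fl/fl-Sham 1, and 296 times the median of the other 7.

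**Figure D1:**
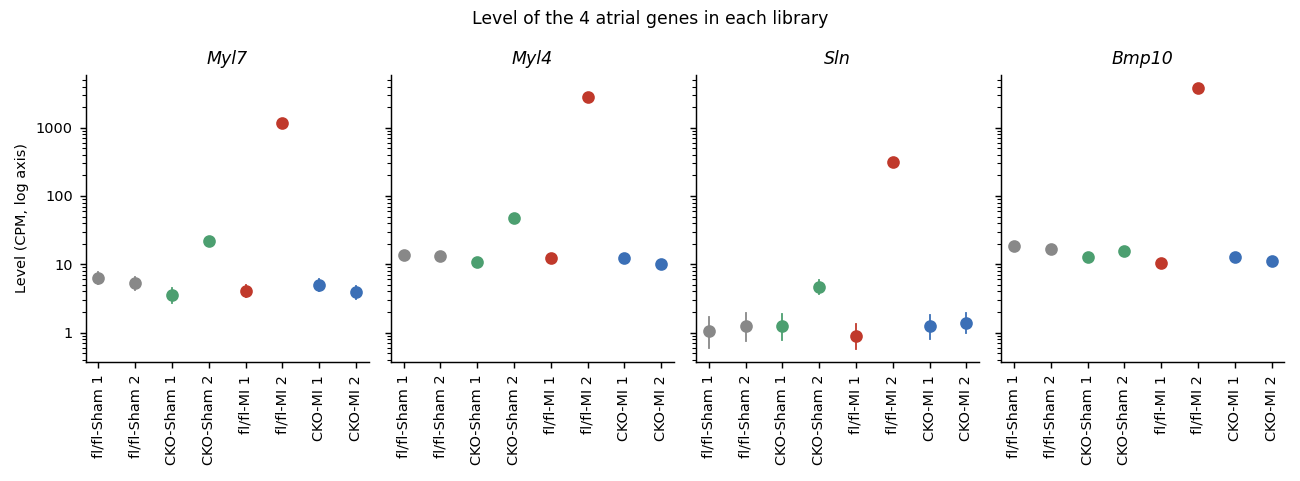
Level of Myl7, Myl4, Sln and Bmp10 in each library in CPM on a log axis, coloured by group, with 95% Poisson intervals that cover counting error only (4 counts taken as 1 read pair). The points of fl/fl-MI 2 sit between 310 and 3834 CPM, and CKO-Sham 2 stands above the remaining libraries for Myl7, Myl4 and Sln but not for Bmp10.

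All 4 genes were higher in fl/fl-MI 2 than in each of the other 7 libraries, as were 19.9% of all 14028 genes tested. For 2.28% of all genes the level in fl/fl-MI 2 was more than 2-fold above the next highest library. These shares are a description, since fl/fl-MI 2 chose the 4 genes. The contrasts that hold this library were fitted with large errors: CKO-MI less fl/fl-MI came to a log2 difference of -7.03 (SE 2.24) for Myl7, -6.98 (SE 2.14) for Myl4, -6.87 (SE 2.19) for Sln and -7.34 (SE 2.17) for Bmp10. That of fl/fl-MI against fl/fl-Sham was 6.63 (SE 2.20), 6.70 (SE 2.11), 7.08 (SE 2.23) and 6.75 (SE 2.12) in the same order. Both contrasts share the fl/fl-MI libraries, so their values are not independent of each other. In both, 1 of the 2 fl/fl-MI libraries, the one that chose the genes, sets the value.

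Levels of different genes are compared per length, in the authors' FPKM. In fl/fl-MI 2 Myl7 was at 2129 FPKM, Bmp10 at 927, Myl4 at 658 and Sln at 255, which placed them at ranks 27, 38, 51 and 112 of all genes in that library. In the other 7 libraries Myl7 was between 4.83 and 28.6 FPKM, Bmp10 between 2.32 and 3.22, Myl4 between 1.87 and 8.10 and Sln between 0.599 and 2.74. Together the 4 genes took 0.908% of all counts in fl/fl-MI 2 and between 0.00238% and 0.00728% elsewhere.

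The ventricular light chain partners were lowest in fl/fl-MI 2, while in CKO-Sham 2 Myl2 (1443 FPKM) and Myl3 (1119 FPKM) were not extreme. Myl2 was at 446 FPKM in fl/fl-MI 2, lower than in every other library (1055 to 1741), and Myl3 was at 471 against 918 to 1369. Myl7 made up 82.7% of the summed FPKM of Myl7 and Myl2 in fl/fl-MI 2, 1.95% in CKO-Sham 2 and 0.277% to 0.785% in the other 6 libraries. Myl4 made up 58.3% of the sum with Myl3 in fl/fl-MI 2, 0.718% in CKO-Sham 2 and 0.142% to 0.374% in the others. The atrial form was the larger of each light chain pair in fl/fl-MI 2, and in no other library.

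The pair of SERCA inhibitors differed from the light chains. Pln was at 770 FPKM in fl/fl-MI 2, inside the range of the other 7 libraries (487 to 1046), and Sln reached 24.9% of the summed FPKM of Sln and Pln, against 0.559% in CKO-Sham 2 and 0.0878% to 0.145% in the other 6. Pln was therefore not the lowest where Sln was highest, unlike Myl2 and Myl3 where Myl7 and Myl4 were highest. The pump itself, Atp2a2, was at 10962 CPM in fl/fl-MI 2 and at 2051 to 5783 CPM in the other libraries.

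**Figure D2:**
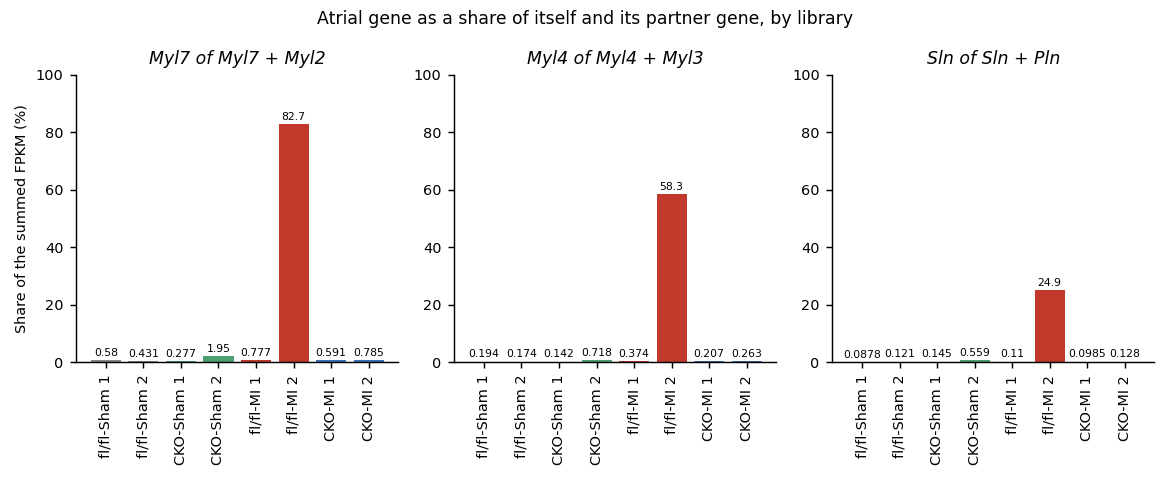
Share in percent that Myl7, Myl4 and Sln take of the summed FPKM of themselves and their ventricular partner gene, in each library, with bars from 0 coloured by group and the value above each bar. The bars of fl/fl-MI 2 reach 82.7%, 58.3% and 24.9%, and the next highest are those of CKO-Sham 2.

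Other genes known from atrial muscle were read from a list of 15, of which 14 passed the filter. In fl/fl-MI 2, 12 of the 14 were above all other libraries, as were 19.9% of all genes tested. For 11 of them the gap was more than 2-fold (2.28% of all genes), and 1 of the 14 was below all others (19.5%). Hamp, counted in the 12 and the 11, passed the filter only through fl/fl-MI 2, at 35.7 FPKM there and at most 0.600 elsewhere. Mybphl, a myosin-binding protein, was at 284 CPM against 0.866 to 4.36 elsewhere, and the kinase genes Sbk3 and Sbk2 were at 266 and 107 CPM against at most 7.78 and 4.04. Kcnj3, a subunit of the acetylcholine-activated potassium channel, was at 341 CPM against 8.00 to 45.7. Nppa, the atrial natriuretic peptide gene, was at 11746 CPM in fl/fl-MI 2, 2.66 times the next highest library. Nppa is also a stress gene of the ventricle, and it was at 2520 to 4419 CPM in the other MI libraries and at 106 to 504 CPM in sham. The exceptions were Kcna5, the Kv1.5 potassium channel, and Nr2f2, a transcription factor of atrial identity. Kcna5 was at 8.54 CPM in fl/fl-MI 2, 11.9 to 19.9 in the other MI libraries and 65.5 to 71.2 in sham. Nr2f2 was at 13.4 CPM in fl/fl-MI 2, inside the range of 10.4 to 21.7.

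The ventricular list of 9 genes went largely the other way. In fl/fl-MI 2, 6 of the 9 were below all other libraries (19.5% of all genes were), among them the transcription factors Irx5 at 1.16 CPM against 5.47 to 8.14 and Hey2 at 1.15 against 3.59 to 5.18. Of the 6, Irx4, Myl2 and Myl3 were also lower in CPM in each other MI library than in every sham library. They were at 5.95, 801 and 886 CPM in fl/fl-MI 2. In the other MI libraries they were at 7.17 to 18.1, 1625 to 2771 and 1467 to 2576 CPM. For Irx5, Hey2 and Irx3 the range in the other MI libraries overlapped that in sham. Kcnd2, a potassium channel gene, was the only 1 of the 9 above all others, at 24.0 CPM against 3.61 to 7.90. Myh7 and Acta1, which are raised in stressed ventricular muscle, were at 607 and 18.8 CPM in fl/fl-MI 2, the lowest values of the series. In the other 3 MI libraries they were at 2927 to 5520 and 254 to 796 CPM. Nppb, the remaining gene of the same stress list, did not share this. It was at 197 CPM in fl/fl-MI 2, 235 to 292 in the other MI libraries and 16.3 to 78.5 in sham.

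**Figure D3:**
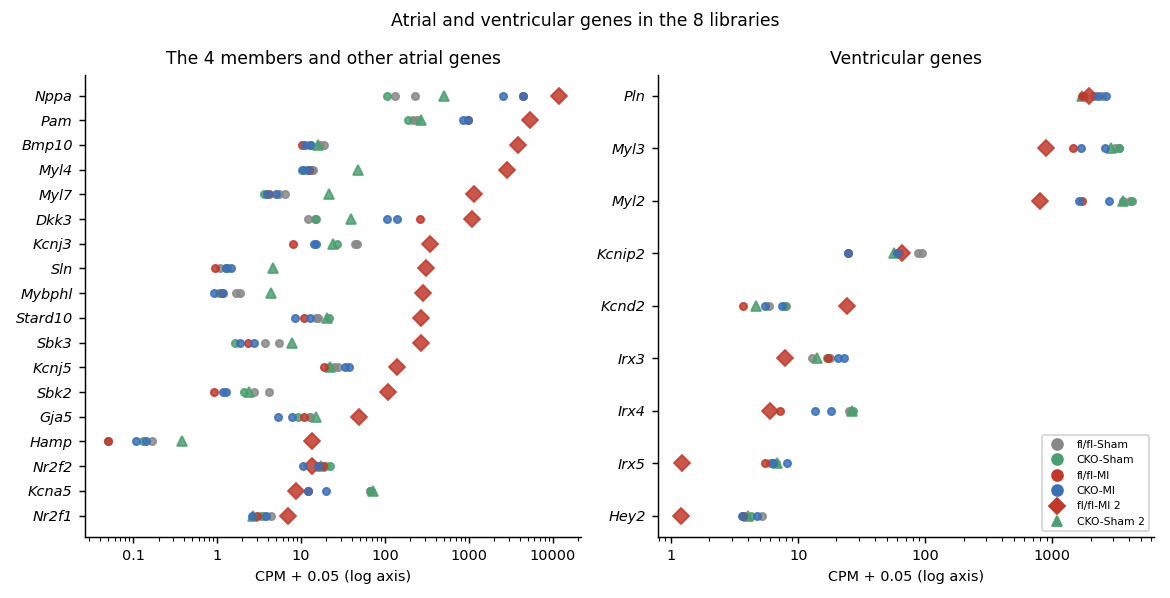
Level in CPM plus 0.05, on a log axis, of the 4 members with the 14 other atrial genes that passed the filter (left) and of the ventricular genes (right) in the 8 libraries, coloured by group, with a diamond for fl/fl-MI 2 and a triangle for CKO-Sham 2. The diamond stands to the right of all other points for the 4 members and 12 of the other atrial genes, and to the left of them for 6 of the 9 ventricular genes.

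Markers of other tissues were read beside this. The summed level of 9 genes of cardiac ganglia was 9.88 CPM in fl/fl-MI 2 (1.75 to 3.33 elsewhere), of which Dbh gave 8.92 CPM and Th, Phox2a, Chat and Slc18a3 were at 0. The lung list of 8 genes, 7 of them in the table, summed to 4.43 CPM (1.33 to 4.52 elsewhere), with Sftpd and Sftpb at 0 and with Scgb1a1 at 0.652 CPM and Sftpc at 0.398 CPM, which were at most 0.0412 CPM and at 0 in the other libraries. The liver list of 7 genes summed to 2.41 CPM (0.472 to 3.88 elsewhere), with 4 genes at 0. The skeletal muscle list of 9 genes summed to 191 CPM (16.6 to 32.7 elsewhere), of which Myl1 gave 184 CPM, while Mylpf was at 0.290 CPM and Myh4 at 0. The sinus node list of 8 genes summed to 87.2 CPM, inside the range of 73.2 to 142 in the other libraries. Epicardial and mesothelial genes summed to 245 CPM in fl/fl-MI 2 against 62.1 to 133 in the other 3 MI libraries and 63.9 to 90.4 in sham. Of these 8 genes, 6 were highest in fl/fl-MI 2, beside 19.9% of all genes tested. The part of such cells in the level of the 4 members was not tested. In bulk tissue, a larger share of cells of a type and more RNA of a gene per cell cannot be told apart.

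Among all 14028 genes tested, the 4 members held ranks 1, 2, 4 and 5 by the ratio of fl/fl-MI 2 to the highest of the other 7 libraries, with 0.5 CPM added to both. The top 15 by this ratio were Bmp10 (199), Sln (60.6), Mybphl (58.6), Myl4 (58.0), Myl7 (52.4), Fgf12 (42.3), Mlana (32.8), Cacna2d2 (32.6), Sbk3 (32.1), Tmem163 (30.4), Aldh3b3 (27.6), Sbk2 (23.8), Cd207 (23.5), Rxfp1 (23.2) and Lmntd1 (21.7). Since fl/fl-MI 2 chose the members, their ranks restate that choice and are a description. Only 25 genes exceeded a ratio of 10. Fgf12 encodes a regulator of sodium channels and Cacna2d2 an auxiliary subunit of calcium channels. Mlana is known from pigment cells and Cd207 from Langerhans cells.

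The genes most like the members over the 8 libraries, by Pearson's r of log2(CPM + 0.5) with the mean standardized level of the 4, were Mybphl, Myl4, Sln, Myl7, Hamp, Cacna2d2, Tmem163, Fgf12, Tbc1d1 and C530008M17Rik. This likeness rests on fl/fl-MI 2 and is a description. Each member is itself part of the mean it was compared with, so high ranks of members were partly set in advance. Bmp10 ranked 13th, behind the other 3 members.

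CKO-Sham 2 was the second library in which 3 of the 4 members stood apart, on a far smaller scale. Myl7 there was 6.07 times its level in CKO-Sham 1, Myl4 4.45 times and Sln 3.73 times, while Bmp10 was 1.22 times. With fl/fl-MI 2 left aside, 3 of the 4 members were highest in CKO-Sham 2, by 3.39-fold (Myl7), 3.51-fold (Myl4) and 3.30-fold (Sln) over the next library. Of all genes tested 11.6% were highest there and 0.435% by more than 1.5-fold. Of the 14 other atrial genes, 5 were highest there and 2 by more than 1.5-fold. Hamp, 1 of those 2, was near the floor, at 0.329 CPM against at most 0.119 in the other 6 libraries. Kcnj3, Kcnj5, Sbk2 and Nr2f1 were among the 9 that were not highest there. So were Nppa, Dkk3 and Pam, whose levels in all MI libraries lay above those in sham. By the ratio of CKO-Sham 2 to the highest of the other 6 libraries, Myl4, Myl7 and Sln ranked 2nd, 3rd and 4th of all 14028 genes, and Bmp10 ranked 5095th. Tmem163, Lmntd1, Mybphl and Cacna2d2, which were also among the top 15 of fl/fl-MI 2, ranked 5th, 6th, 7th and 9th. This ranking was drawn up after the values had been seen.

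The size of the rise above the median of the other 6 libraries can be set side by side in the 2 libraries. The excess in CKO-Sham 2 was 1.48% of that in fl/fl-MI 2 for Myl7, 1.28% for Myl4 and 1.10% for Sln. For Bmp10 it was 0.0799%. Among the other atrial genes it varied widely, with 1.15% for Mybphl, 2.02% for Sbk3, 2.55% for Stard10 and 12.3% for Gja5. It was below 0 for others, among them Dkk3, Kcnj5, Pam and Nppa. The 6 libraries include MI libraries, where Nppa, Dkk3 and Pam were higher than in sham. Among the sham libraries alone CKO-Sham 2 was highest for these genes. Nppa was at 504 CPM (106 to 228 in the other sham libraries), Dkk3 at 38.9 (12.0 to 14.8) and Pam at 267 (189 to 240). Kcnj5, at 22.2 CPM, was inside the sham range of 21.1 to 27.6. The 3 contractile and calcium-handling members lay between 1.10% and 1.48%, and Bmp10 lay apart from them. None of the 9 ventricular genes was lowest or highest in CKO-Sham 2 with fl/fl-MI 2 left out, a comparison that includes MI libraries. Among the sham libraries alone CKO-Sham 2 was lowest for Myl2 (3595 CPM, next 3606), Myl3 (2922, next 3091) and Pln (1717, next 1771). The same held for Kcnip2 (57.2, next 62.0) and Kcnd2 (4.57, next 5.87), while Irx5 was highest there (6.74, next 6.67). Hey2, Irx3 and Irx4 lay inside the sham range.

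The knockout without infarction, CKO-Sham against fl/fl-Sham by label, is a comparison that does not hold fl/fl-MI 2. Esr1 did not set these groups apart, at 5.52 and 7.60 CPM in CKO-Sham and 8.36 and 6.41 in fl/fl-Sham. None of the 4 members passed edgeR's quasi-likelihood test at an adjusted p under 0.05, as was the case for all but 1 of the 14028 genes (0.00713% called; 546 genes had an unadjusted p under 0.05). The log2 difference was 1.10 (SE 1.77) for Myl7, 1.12 (SE 1.68) for Myl4, 1.34 (SE 1.87) for Sln and -0.31 (SE 1.66) for Bmp10. The error is that of a fit over all 8 libraries, into which the spread of fl/fl-MI enters. Without fl/fl-MI 2 the differences hardly moved and their SE was 0.68, 0.57, 0.58 and 0.16 in the same order, with adjusted p between 0.539 and 0.672. Without CKO-Sham 2 the value of Myl7 turned to -0.72, that of Myl4 to -0.33, and that of Sln shrank to 0.11, so the positive values of all 3 rested on that single library.

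Infarction in the knockout, CKO-MI against CKO-Sham, holds neither fl/fl group. CKO-MI and CKO-Sham also differed in Esr1, of which MerCreMer carries a part, at 707 and 402 against 5.52 and 7.60 CPM. Effects of infarction and of this difference cannot be told apart here. Here 24.7% of all genes were called, 12.8% as higher and 11.9% as lower, and none of the 4 members was. On the log2(FPKM + 1) scale, with the median of all genes shifted by 0.39, the calls were 33.0% higher and 3.81% lower. The log2 difference was -1.50 (SE 1.78, adjusted p = 0.567) for Myl7, -1.40 (SE 1.68, adjusted p = 0.573) for Myl4, -1.14 (SE 1.82, adjusted p = 0.674) for Sln and -0.27 (SE 1.66, adjusted p = 0.919) for Bmp10 by edgeR's quasi-likelihood test. Without fl/fl-MI 2 the SE fell to between 0.16 and 0.69, and the lowest adjusted p was 0.0875, for Myl4. Without CKO-Sham 2 the values were 0.32 for Myl7, 0.048 for Myl4 and 0.093 for Sln. The CPM of Bmp10 did not overlap between the groups (13.0 and 15.8 against 12.6 and 11.2), as held for 35.8% of all genes in this direction, and the gap did not pass the test.

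Infarction in the controls could be read apart from the choice of members only from the other library of the group, fl/fl-MI 1, set against the fl/fl-Sham libraries in a fit of 7 libraries. This single library is assumed to vary as the other groups do. In this fit 29.5% of all genes were called, 15.8% as higher and 13.7% as lower (48.5% and 4.80% on the log2(FPKM + 1) scale, with its median shift of 0.51). Bmp10 fell by 0.79 on the log2 scale (SE 0.21, adjusted p = 0.0278, edgeR), from 18.8 and 16.9 to 10.3 CPM. Myl7 differed by -0.53 (SE 0.85, adjusted p = 0.673), Myl4 by -0.12 (SE 0.69, adjusted p = 0.915) and Sln by -0.35 (SE 0.72, adjusted p = 0.744). The call for Bmp10 was lost on the FPKM scale, where the median of all genes was shifted by 0.51 and Bmp10 differed by -0.08, it was lost with no filter on low values, when the adjusted p was 0.0503, and the difference was under 2-fold.

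**Figure D4:**
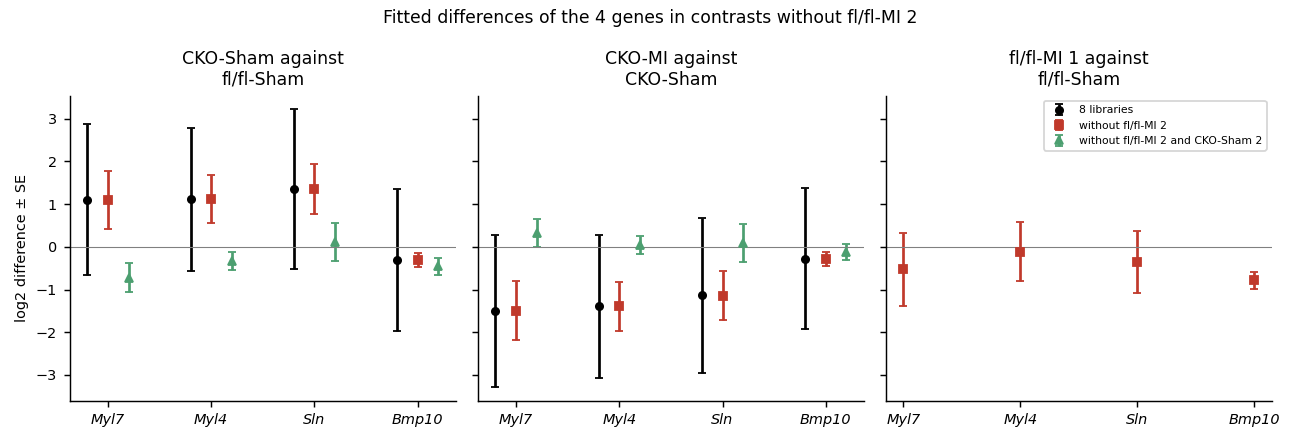
Fitted log2 difference with its SE for the 4 genes in the contrasts that do not hold fl/fl-MI 2, over all 8 libraries (black), without fl/fl-MI 2 (red) and also without CKO-Sham 2 (green), with a line at 0. The positive values of Myl7, Myl4 and Sln in CKO-Sham and their negative values in CKO-MI move to or past 0 without CKO-Sham 2, and Bmp10 lies below 0 in each fit shown.

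In the same contrasts, genes that act with the members were counted. In CKO-MI against CKO-Sham, 12.8% of all genes were called as higher and 11.9% as lower. In CKO-MI against CKO-Sham, 1 of the 14 other atrial genes rose, Nppa by 3.51 log2 units (SE 0.84, adjusted p = 0.0264), and 1 fell, Kcna5 by 2.12 (SE 0.26, adjusted p = 0.00490). Without fl/fl-MI 2, 4 rose and 4 fell, in a fit that called 21.6% of all genes as higher and 19.7% as lower. The list's median difference was -0.83, beside 0.01 over all genes, and -0.08 without CKO-Sham 2. Of the 9 ventricular genes 1 fell, Irx4 by 0.76 (SE 0.19, adjusted p = 0.0286), and without fl/fl-MI 2 Myl2 fell too. The median of that list was 0.02, and -0.29 without CKO-Sham 2. Without CKO-Sham 2 only 2.25% of all genes were called as higher and 2.84% as lower, and no ventricular, light chain or SERCA gene was. In fl/fl-MI 1 against fl/fl-Sham the median difference was -0.49 for the other atrial genes and -0.93 for the ventricular genes. Over all genes it was 0.03. Of the other atrial genes, Nppa, Dkk3 and Pam lay higher in fl/fl-MI 1. Kcnj3 lay lower by 2.48 (SE 0.16) and Sbk2 by 1.93 (SE 0.44). Kcnj3 and Sbk2 were both among the genes highest in fl/fl-MI 2, so the 2 libraries of the group lay on opposite sides of sham for them. In CKO-Sham against fl/fl-Sham no gene of any list was called.

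Of the partner light chains, Myl2 fell by 1.16 (SE 0.35, adjusted p = 0.0436) and Myl3 by 1.14 (SE 0.30, adjusted p = 0.0282) in fl/fl-MI 1. In CKO-MI neither passed the test, with differences of -0.83 (SE 0.41) and -0.55 (SE 0.31), and of the 11 light chain genes tested Myl12b, a non-muscle light chain, fell by 0.51 (SE 0.13). Myl2 passed as well without fl/fl-MI 2, at -0.83 (SE 0.27, adjusted p = 0.0445). Pln passed the test in neither contrast. In CKO-MI 12.8% of all genes were called as higher and 11.9% as lower. Atp2a3, a SERCA pump known from non-muscle cells, fell by 1.34 (SE 0.23, adjusted p = 0.00973) in CKO-MI, and without fl/fl-MI 2 Atp2a2 also rose, by 1.36 (SE 0.18, adjusted p = 0.00153), and Strit1, which encodes a peptide that activates SERCA, fell by 3.50 (SE 1.02, adjusted p = 0.0296).

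For the Bmp10 pathway, ligands come first. Of the 5 BMP ligand genes tested in CKO-MI against CKO-Sham, Bmp2 rose by 1.61 (SE 0.42, adjusted p = 0.0339) and Bmp6 fell by 0.90 (SE 0.17, adjusted p = 0.0121). Over all genes that fit called 12.8% as higher and 11.9% as lower. In fl/fl-MI 1 Bmp2 and Bmp6 differed from fl/fl-Sham in the same directions. In fl/fl-MI 2 neither was extreme: Bmp2 was at 2.58 CPM (1.32 to 5.57 elsewhere) and Bmp6 at 43.6 CPM (33.8 to 76.2 elsewhere). Gdf2, which encodes BMP9, the closest relative of BMP10, was at 0.603 CPM there and at most 0.113 elsewhere, below the filter.

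Of the 6 receptor genes tested, Bmpr1a rose by 1.69 (SE 0.15, adjusted p = 0.00357) in CKO-MI against CKO-Sham and by 1.62 (SE 0.12, adjusted p = 0.000684) in fl/fl-MI 1. In fl/fl-MI 1 Acvr1 rose as well, by 0.79 (SE 0.17, adjusted p = 0.0147), and Eng fell by 1.24 (SE 0.18, adjusted p = 0.00329) and Acvr2a by 0.57 (SE 0.17, adjusted p = 0.0388). No other receptor gene passed in CKO-MI over all libraries, a fit that called 12.8% of all genes as higher and 11.9% as lower. Without fl/fl-MI 2, Bmpr1a, Acvr1 and Bmpr2 rose and Acvrl1 and Eng fell, beside 21.6% and 19.7% of all genes. The receptors through which BMP10 is known to signal went in different directions in fl/fl-MI 2: Acvrl1, its type I receptor on endothelium, was at 25.2 CPM, below the 44.8 to 70.7 of the other libraries, and Eng was at 421 CPM, above their 150 to 374. Bmpr2 was at 92.0 CPM, within 78.6 to 127.

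Of the 11 SMADs and targets tested, Smad4, the common mediator, rose by 0.51 (SE 0.13, adjusted p = 0.0340) in CKO-MI and Id1, a direct BMP target, fell by 1.53 (SE 0.37, adjusted p = 0.0257). Hey1 fell too without fl/fl-MI 2, by 1.54 (SE 0.22, adjusted p = 0.00180). Over all 8 libraries the CKO-MI fit called 12.8% of all genes as higher and 11.9% as lower. In fl/fl-MI 1, where Bmp10 was lower, the median difference of the 11 was 0.33, beside 0.03 over all genes. Id2, Smad4 and Tmem100 (by 0.71, SE 0.19) were among those higher there, and Hey1 was lower by 2.20 (SE 0.29). In fl/fl-MI 2, where Bmp10 was at 3834 CPM, 6 of the 11 were above all other libraries, beside 19.9% of all genes. Of these 6, 2 were more than 2-fold above the next library, beside 2.28% of all genes. Hey1 (36.1 against at most 35.7 CPM) and Id2 (26.7 against at most 24.5) were barely above it. Tmem100, a target of the BMP9 and BMP10 receptor in endothelium, was at 71.5 CPM in fl/fl-MI 2 against 9.74 to 21.3 elsewhere. The inhibitory Smad7 and Smad6 were at 49.5 and 36.5 CPM against at most 35.5 and 27.0. Id1 was at 78.8 CPM, above the other MI libraries (26.8 to 58.9) and below the sham libraries (93.6 to 137). Id3 was at 73.2 CPM, inside the range of 57.8 to 96.9. Whether any of these levels follows from that of Bmp10 was not tested.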

How the data were processed

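Poly(A) RNA of mouse myocardium was sequenced in 8 libraries, 2 per group. Per the labels, the kit marked strand with dUTP and reads were trimmed with cutadapt 1.9 and checked with FastQC. The aligner, the counter and its strand setting were not given in the sources used here. The authors deposited whole-number counts and FPKM per gene and per transcript, on GRCm38. No deposited column was left without a sample. The deposited counts sum to 73821747 to 88117573 per library, and low values pile up at 4 and 8, so 4 counts were taken as 1 read pair for counting intervals. Reads carry no molecular identifiers, so these intervals cover counting error only.

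Genes whose FPKM averaged 0.5 or more over the libraries (14028 genes) were kept, and their counts were fitted with edgeR 4.0.16 (quasi-likelihood, TMM, one mean per group) in R 4.3.3, with Benjamini-Hochberg adjustment over all genes tested and a threshold of 0.05. Settings tried as alternatives were RLE normalization, no filter, a stricter filter (average FPKM 5 or more), DESeq2 1.42.0, limma 3.58.1 on log2(FPKM + 1) and log2(FPKM + 0.1), counts divided by 4, only the 4 libraries compared, a replicate block, leaving out each library, and calls by an unadjusted p under 0.05 with at least a 2-fold difference. A fit without both fl/fl-MI 2 and CKO-Sham 2 was added after seeing the data. FPKM differences are on the log2(value + pseudocount) scale, which understates changes of low genes. The scripts were tested on simulated data. Members and gene lists were chosen with earlier results of these data known. Named genes were the 4 members, list genes, the 15 genes highest in fl/fl-MI 2 relative to the other libraries and the 10 most like the members. Sequences came from RefSeq (GRCm38.p6) and GENCODE M21; gene borders of all 4 members matched GENCODE M21. Plots were drawn with matplotlib 3.10.9 and alignments made with Biopython 1.88.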

Additional observations from a re-analysis of the deposited data

How the results depend on the processing

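The number of members called stayed at 0 in CKO-Sham against fl/fl-Sham and in CKO-MI against CKO-Sham under each alternative run, leaving out each library included (range 0 to 0), and 1 of 4 was called in fl/fl-MI 1 against fl/fl-Sham, which fell to 0 with no filter on low values and with limma at either pseudocount (log2 difference of Bmp10 -0.71, -0.08 and -0.10). It was also 0 by an unadjusted p under 0.05 with at least 2-fold, a rule added for this contrast after seeing the data. On the log2(FPKM + 1) scale the median of all genes was shifted by 0.39 in CKO-MI and 0.51 in fl/fl-MI 1, and FPKM reversed values that had not been called: Bmp10 in CKO-MI to 0.22 and 0.28 at pseudocounts of 1 and 0.1, and in fl/fl-MI 1 Myl7 to 0.15 and 0.16, Myl4 to 0.42 and 0.55, and Sln to 0.15 and 0.31. In FPKM the ratio of fl/fl-MI 2 to the next library was 74.3 for Myl7, 81.3 for Myl4, 93.1 for Sln and 288 for Bmp10. Leaving out 1 library moved the log2 difference in CKO-Sham from -0.72 to 1.88 for Myl7, -0.33 to 1.83 for Myl4, 0.11 to 2.01 for Sln and -0.46 to -0.17 for Bmp10, and in CKO-MI from -2.28 to 0.32, -2.10 to 0.048, -1.80 to 0.093 and -0.41 to -0.12. Without fl/fl-MI 2 and CKO-Sham 2 together, Myl7 and Myl4 turned to -0.72 and -0.33 in CKO-Sham, and Myl7, Myl4 and Sln to 0.32, 0.048 and 0.092 in CKO-MI. The medians of the atrial, ventricular, BMP receptor and BMP target lists relative to all genes moved by less than their median SE under RLE and log2(FPKM + 1), except the ventricular list in fl/fl-MI 1, which went from -0.96 to -0.64 with log2(FPKM + 1).

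Replicate numbers are only names: the deviations of same-numbered libraries correlated between -0.21 and 0.06 over pairs of groups. With the replicate block, no member was called, and the difference in CKO-Sham was 0.32 for Myl7, 0.53 for Myl4, 0.96 for Sln and -0.38 for Bmp10. Genes called in CKO-Sham numbered 1, against 34 with DESeq2, 165 with only the 4 libraries compared, 4 with no filter, 0 with a stricter filter (mean FPKM 5 or more) and 0 with the block. Those in CKO-MI numbered 3467, against 5390 with log2(FPKM + 0.1), 2105 under the stricter FPKM filter, and 25 to 5793 when 1 library was left out. In fl/fl-MI 1 4135 genes were called, against 7479 and 7366 with limma and 2316 under the stricter filter. With 2 libraries a group, an exact permutation test cannot go below 0.33, and Sln rests on 61 to 136 counts in most libraries.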

Other observations

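Some genes outside the atrial list also stood out in CKO-Sham 2, among them 3 that were not high in fl/fl-MI 2. Gm15501 was at 47.5 CPM there against 2.08 to 12.1 in the other libraries, Gm15710 at 15.7 against 5.30 to 7.66, and Gm11353 at 2.80 against 0.812 to 1.11. In fl/fl-MI 2 these 3 genes were at 7.89, 5.48 and 0.929 CPM, inside the range of the remaining libraries. They were picked after their values had been seen.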
